A study of Mauremys reevesii with 3 samples.

Results

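The microRNAs (miRNAs) of turtle embryos incubated at the female-producing temperature of 32 °C were compared with those of embryos incubated at the male-producing temperature of 26 °C. The animals were Chinese pond turtles (Mauremys reevesii), taken at Greenbaum's stage 16, at which incubation temperature starts to act on the gonad. Adrenal-kidney-gonad complexes were sampled, in which the early gonad, the embryonic kidney and the adrenal are dissected as 1 piece. Each temperature had 1 small RNA library, made from the pooled RNA of 3 biological samples, so no value below has a replicate check. No strain, sex or genetic change was given for either group, and eggs from 1 supplier had been divided at random among containers that were then placed in the incubators. The library from 29 °C was used only as a side value.

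The table held 1743 rows, which stood for 1032 different miRNAs or predicted entries once rows of the same mature miRNA under several species names were counted once. Of these, 390 had at least 10 counts in either library and entered the comparison. They comprised 183 entries with a known miRNA name, called named miRNAs below, and 207 predicted entries that carry only a number. Whether each named entry is a miRNA in the turtle was not tested. Prefixes such as hsa or gga name the species whose miRNA was used as reference, not the turtle.

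MicroRNAs are short RNAs that guide Argonaute proteins to messenger RNAs and lower their translation or stability. Target choice rests largely on the seed, the bases just after the 5′ end, so that miRNAs with the same seed form a family with overlapping targets. A hairpin precursor yields a 5p and a 3p strand, of which usually 1 is kept and the other is mostly degraded, and several hairpins often lie in 1 transcript as a genomic cluster. In reptiles with temperature-dependent sex determination, such as many turtles, the bipotential gonad becomes a testis or an ovary according to the temperature of the egg during a sensitive period.

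The sequences below carry the comparison. They are written 5′ to 3′ with the seed, bases 2 to 8, in capitals, as the deposited table gives them. The first set holds named miRNAs with more CPM at 32 °C and, beside miR-7, its relative miR-7b, which had less. It shows that miR-7 and miR-7b share 1 seed, as do miR-205 and miR-205b, and miR-221 and miR-222a.
miR-205-5p: uCCUUCAUuccaccggagucu
miR-205b: cCCUUCAUuccaccggaaucug
miR-137-3p: uUAUUGCUuaagaauacgcgua
miR-7: uGGAAGACuagugauuuuguug
miR-7b-5p: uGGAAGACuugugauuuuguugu
miR-221: aGCUACAUugucugcuggguuu
miR-222a: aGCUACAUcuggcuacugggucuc
miR-196-5p: uAGGUAGUuucauguuguugg

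The second set holds named miRNAs with less CPM at 32 °C. For miR-122, miR-202 and miR-182 both strands are shown, because both were at least 2-fold lower, and the seeds of the strands differ.
miR-122-5p: uGGAGUGUgacaaugguguuu
miR-122-3p: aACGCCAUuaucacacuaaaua
miR-202-5p: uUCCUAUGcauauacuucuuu
miR-202-3p: aGAGGCAUagggcaugggaaaa
miR-182-5p: uUUGGCAAugguagaacucac
miR-182-3p: uGGUUCUAgacuugccaacu
miR-217: uACUGCAUcaggaacugauugga
miR-15c-3p: cAGACCAUucugggcugccuca
miR-301a-5p: uCUGACAAuguugcacuacu
miR-192-5p: aUGACCUAugaauugacagcc

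The third set holds the most counted seed families, miR-10, with an identical seed in the 3 members shown, and miR-148, together with the opposite strand of miR-148a.
miR-10a-5p: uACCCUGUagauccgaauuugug
miR-10b-5p: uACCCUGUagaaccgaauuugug
miR-10c-5p: uACCCUGUagaaucgaauuugug
miR-148a-3p: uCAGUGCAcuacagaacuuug
miR-148b-3p: uCAGUGCAucacagaacuuug
miR-148a-5p: aAAGUUCUgugacacucagacu

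The fourth set holds a selection of the predicted entries described below. Of these, novel_60 and novel_123 are nearly identical, and novel_795 and novel_587 belong to a family of related predicted sequences.
novel_67: aGCUAUGCcacuguaguacgugu
novel_60: uCGGGACGcgggacaaacaagc
novel_123: uCGGGACAcgggacaaacaagc
novel_642: uGUGUCUGucuucgugggc
novel_795: aCUGGAGUcgauguagcuuagg
novel_587: aCUCAAGUcgauguagcuuagau

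The column totals were 9613861 counts at 32 °C and 9348882 at 26 °C, so that 1 count was worth 0.104 CPM at 32 °C and 0.107 CPM at 26 °C, a scale on which both column totals are set equal. Because 1 molecule can be listed under several names, the rows that stand for a miRNA held 3068384 counts at 32 °C and 3043194 at 26 °C. Intervals of the ratio of 2 counts are 95% exact conditional (Clopper-Pearson) intervals. Those of the difference between strands of a hairpin are 95% conditional intervals of the odds ratio of both strands' counts in both libraries. All intervals cover counting error only. Without molecular identifiers, reads of 1 amplified molecule count several times, which the intervals leave out. A miRNA is called higher or lower below where its CPM differed by 2-fold or more and equality lay outside the interval.

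The abundant miRNAs stayed within 2-fold between the temperatures, and the named miRNAs beyond 2-fold were of low or moderate abundance. Among those above 1000 CPM, log2 ratios still reached 0.61 for miR-7, -0.64 for miR-192-5p and -0.55 for miR-34b-5p. Of all 390 members, 23 (5.9%) were higher and 71 (18.2%) lower at 32 °C. Among the 183 named miRNAs, 2 (1.09%) were higher and 16 (8.74%) lower, and among the 207 predicted entries 21 (10.1%) were higher and 55 (26.6%) lower. None of the 94 calls had a mean above 1000 CPM, and 79 of them had a mean under 10 CPM. The interval excluded equality, at any fold, for 30 named miRNAs above and 68 below it, and included it for 85. The median log2 ratio of all members was -0.19 on the column totals, -0.08 with DESeq2 size factors and 0.02 with TMM factors. Each log2 ratio is thus 0.21 greater under TMM, and a ratio between -0.21 and 0 turns positive. With TMM the calls were 31 higher and 55 lower, so that higher calls made up 36.0% of them, against 24.5% on the column totals.

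**Figure D1:**
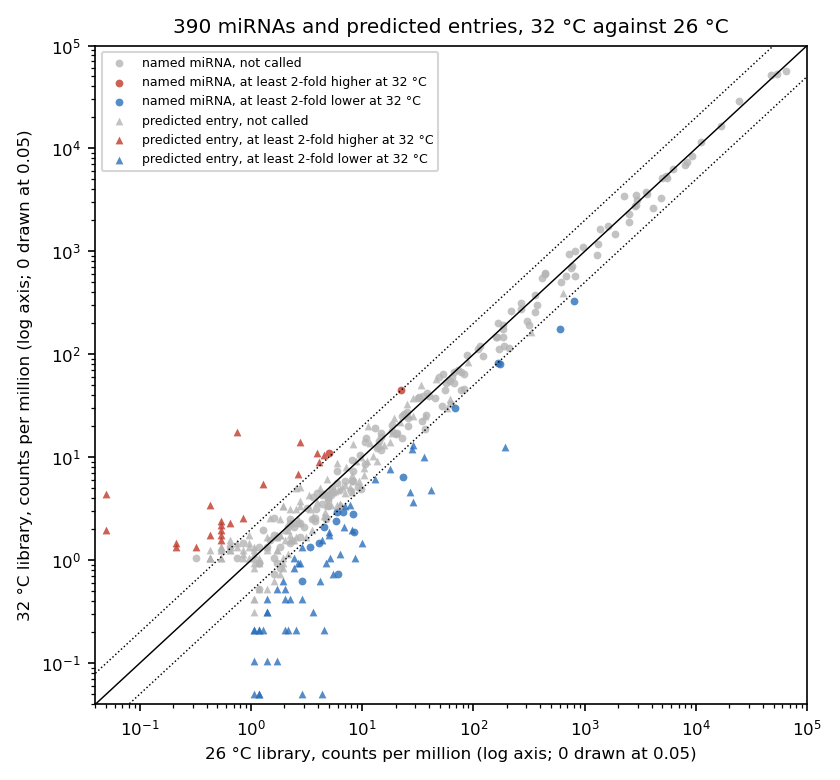
CPM of the 390 members at 32 °C (y axis) against 26 °C (x axis), both on log axes, with circles for named miRNAs and triangles for predicted entries. The solid line marks equality and the dotted lines 2-fold differences, a count of 0 is drawn at 0.05 CPM, and none of the 71 lower calls (blue) and 23 higher calls (red) has a mean above 1000 CPM.

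Only 2 named miRNAs were called higher at 32 °C. miR-205-5p (oan-miR-205-5p), a miRNA of stratified and glandular epithelia, had 435 counts at 32 °C, against 210 at 26 °C, with 327 at 29 °C. Its log2 ratio was 1.01 (0.77 to 1.25), at the 2-fold limit, while miR-205b with the same seed had 360 counts at 32 °C against 298 at 26 °C (log2 ratio 0.23, interval 0.01 to 0.46). miR-137-3p (dre-miR-137-3p), a neuronal miRNA, had 105 counts at 32 °C against 47 at 26 °C (log2 ratio 1.12, interval 0.61 to 1.65). The most counted row of the miR-153 group, also a neuronal miRNA, was the predicted entry novel_54, with 196 counts at 32 °C against 173 at 26 °C. The 3 rows of that group named miR-153 had identical counts, 52 at 32 °C against 19 at 26 °C (log2 ratio 1.41, interval 0.63 to 2.25), so that counting them apart from novel_54 would add a named miRNA to the higher calls.

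Among named miRNAs with a mean above 1000 CPM, the highest ratio was that of miR-7 (gga-miR-7), which vertebrate endocrine and neuronal cells express strongly. It had 33098 counts at 32 °C against 21124 at 26 °C, with 26560 at 29 °C (log2 ratio 0.61, interval 0.58 to 0.63). Its near relative miR-7b-5p (mmu-miR-7b-5p) went the other way, with 2036 counts at 32 °C against 2845 at 26 °C (log2 ratio -0.52, interval -0.61 to -0.44). Summed over the seed, miR-7 stood at 3656 CPM at 32 °C and 2566 CPM at 26 °C (log2 ratio 0.51, interval 0.49 to 0.53). miR-196-5p (gga-miR-196-5p), a miRNA of Hox gene clusters, had 5914 counts at 32 °C against 4115 at 26 °C (log2 ratio 0.48, interval 0.43 to 0.54). miR-125a (dre-miR-125a), the vertebrate relative of the worm timing miRNA lin-4, had 5740 against 4154 counts (log2 ratio 0.43, interval 0.37 to 0.48). None of these reached 2-fold under column totals, DESeq2 size factors or TMM factors.

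The 16 lower named miRNAs included both strands of the gonad miRNA miR-202, of the liver miRNA miR-122 and of miR-182, a miRNA of sensory and neuroendocrine epithelia. miR-202-5p, listed as mmu-miR-202-5p and abundant in the gonads of vertebrates, had 3140 counts (327 CPM) at 32 °C against 7500 (802 CPM) at 26 °C (log2 ratio -1.30, interval -1.36 to -1.24). The 29 °C library was not between them, with 9800 counts. The 3p strand (dre-miR-202-3p) had 28 counts at 32 °C against 63 at 26 °C (log2 ratio -1.21, interval -1.91 to -0.55), and more than either at 29 °C. Each strand was thus lowest at 32 °C and highest at 29 °C, and the share of the 3p strand in the hairpin's counts was 0.884% at 32 °C and 0.833% at 26 °C. The log2 ratio of the 3p strand to the 5p strand between the temperatures was 0.09 (-0.61 to 0.75), an interval that included 0.

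miR-122-5p, listed as cgr-miR-122 and the most abundant miRNA of hepatocytes, had 1680 counts at 32 °C against 5629 at 26 °C, and miR-122-3p (hsa-miR-122-3p) had 7 against 57. The 29 °C library held 1410 and 6, below both others. The log2 ratios were -1.78 (-1.86 to -1.71) for the 5p strand and -3.07 (-4.44 to -1.93) for the 3p strand. miR-217 (hsa-miR-217), a miRNA of pancreatic acinar cells, had 785 counts at 32 °C against 1567 at 26 °C. It lay just inside the 2-fold limit at a log2 ratio of -1.04 (-1.16 to -0.91), and was under it with TMM at -0.82. Its cluster partner miR-216b-5p had 16 against 26 counts (log2 ratio -0.74, interval -1.74 to 0.21). miR-182-3p (aca-miR-182-3p) had 18 counts at 32 °C against 79 at 26 °C, and miR-182-5p (chi-miR-182) had 14 against 38. TMM raised every log2 ratio by 0.21, so both higher named miRNAs had to stay called. Of the 16 lower ones, 10 were still called with TMM. The 6 that were not were miR-202-3p, miR-217, miR-148a-5p, miR-301a-5p, miR-125a-3p and miR-30a-3p.

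The label of the tissue was checked against miRNAs known from other vertebrates to mark its parts. The source of all libraries is labelled gonad, while the tissue field names the whole complex, and the miRNAs were those of more than a gonad. The gonad marker miR-202 was present in both libraries. The kidney miRNAs miR-192, miR-194 and miR-215 had 4 members with 32656 summed counts at 32 °C and 46114 at 26 °C. These were far more than the 3168 and 7563 counts of miR-202. However, miR-192 is a miRNA of gut as well as kidney epithelium, and the part of other tissue in these counts was not tested. No adrenal-restricted miRNA was in the lists used here. miRNAs of organs next to the complex were also present. The 4 members of the liver and pancreas list summed to 2488 counts at 32 °C and 7279 at 26 °C, and 3 of the 4 were lower, against 18.2% of all members and 8.74% of the named miRNAs. Without miR-217, which TMM leaves uncalled, the called members are the 2 strands of miR-122. No member was named miR-375, and miR-216a had fewer than 10 counts in either library. miR-202 and miR-122 were both lower at 32 °C, but at 29 °C miR-202-5p was highest and miR-122-5p lowest of the 3 libraries. The part of neighbouring tissue in the lower miR-202 value was not tested, and fewer cells of a type and less RNA per cell cannot be told apart in pooled tissue.

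In the tissue lists besides those of miR-202, liver and pancreas, and miR-182, the only members called were miR-205-5p and miR-137-3p, described above. In the striated muscle list, 0 of 4 members were called, and the muscle miRNA miR-206 (mdo-miR-206) had 440 counts at 32 °C against 766 at 26 °C (log2 ratio -0.84, interval -1.01 to -0.67). The red cell miRNA miR-451a had 25 against 44 counts (log2 ratio -0.86, interval -1.63 to -0.12), and was the only erythroid member. All 6 leukocyte members had intervals that included equality, among them the granulocyte miRNA miR-223-3p (hsa-miR-223-3p) with 380 counts at 32 °C against 369 at 26 °C. The endothelial miRNA miR-126-3p (bta-miR-126-3p) had 70358 against 77218 counts and a log2 ratio of -0.17, which turned to 0.04 with TMM. No member fell in the cartilage list. The mesenchyme list, made of miR-143, miR-145, miR-199 and miR-214, had a median of 0.00 over 10 members, against -0.19 over all members. Its most counted member, miR-143 (ola-miR-143), had 158077 counts at 32 °C and 156073 at 26 °C, and its log2 ratio of -0.02 was 0.19 with TMM. The 8 members of the neural list, which includes miR-7 and its relatives, had 1 higher call, miR-137, and a median of -0.16, or 0.05 with TMM. Its summed counts, mostly of miR-7, had a log2 ratio of 0.50. Of the 4 epithelial members, miR-205-5p was called, and the abundant miR-429 (xla-miR-429) had 5579 against 6380 counts (log2 ratio -0.23, interval -0.29 to -0.18). The epithelial median of 0.35 lay between miR-205b (0.23) and the rare miR-203a (0.47), which had 10 counts at 32 °C against 7 at 26 °C. The list's summed counts had a log2 ratio of -0.15, or 0.06 with TMM. The pluripotency miRNA miR-302d (gga-miR-302d), also known from early germ cells, had 102 counts at 32 °C against 90 at 26 °C and an interval that included equality (-0.28 to 0.57). The oncogenic miR-21, with 70 against 78 counts, likewise had an interval that included it (-0.68 to 0.29).

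By family, the medians of the lists can be set beside the median of -0.19 over all members, of which 5.9% were called higher and 18.2% lower. The lists go by miRNA name and hold both strands of a hairpin, so some members have another seed than the family's main strand. Each called member of the family lists was such a strand. The let-7 list, of the family that holds back proliferation and marks differentiated cells, had 15 members and a median of 0.15. Of these members 0 were higher and 1, the 3p strand let-7c-3p, was lower. The miR-10 and miR-196 list of Hox clusters also had 15 members, with 0 calls and a median of 0.14. The miR-221 and miR-222 list had a median of 0.26 and the miR-29 list, of miRNAs that target collagens, one of 0.17 on 30 counts at 32 °C against 26 at 26 °C. The list of miR-125 with miR-99 and miR-100 had a median of 0.03 with 1 of 9 lower, the 3p strand miR-125a-3p. Medians that were negative on column totals and positive with TMM were those of miR-17-92 and its paralogs (-0.02, or 0.19 with TMM), miR-26 and miR-101 (-0.10, or 0.11), and miR-148 and miR-152 (-0.18, or 0.03). The same held for miR-23, miR-27 and miR-24 (-0.18, or 0.03).

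The list median was below 0 under both scalings for miR-30, miR-34, miR-103 and miR-107, miR-15 and miR-16, miR-181, and miR-130 with its relatives. By summed counts this held only for miR-34 (-0.55, or -0.34 with TMM) and for miR-15 and miR-16 (-0.39, or -0.18). The sums of the others were negative on column totals and positive with TMM, at -0.13 and 0.09 for miR-30, -0.12 and 0.10 for miR-103 and miR-107, -0.21 and 0.01 for miR-181, and -0.19 and 0.03 for miR-130 and its relatives. The miR-30 list had a median of -0.50 (-0.28 with TMM) over 10 members, of which 1, the 3p strand miR-30a-3p, was lower. Its leading member miR-30c-5p (hsa-miR-30c-5p), abundant in kidney epithelium, had 51485 counts at 32 °C against 50205 at 26 °C and a log2 ratio of -0.00, or 0.21 with TMM, whereas miR-30b-5p (mml-miR-30b-5p) with the same seed had 8870 against 12094 counts (log2 ratio -0.49, interval -0.53 to -0.45). The miR-34 list, of miRNAs that p53 induces and that mark ciliated and germ cells, had a median of -0.66, with 0 of 2 called. miR-34b-5p (gga-miR-34b-5p), which also stands for rows named miR-34c, had 31837 counts at 32 °C against 45365 at 26 °C, with 37077 at 29 °C. In the miR-103 and miR-107 list the main member miR-103a-3p (hsa-miR-103a-3p) had 22123 counts at 32 °C against 23278 at 26 °C and a log2 ratio of -0.11, or 0.10 with TMM. The list's median of -0.63 rests on rare members, of which the minor strand miR-103-5p, with 13 against 32 counts, was called. The miR-15 and miR-16 list, known for restraining the cell cycle, had a median of -0.29 with 1 of 5 lower, the 3p strand miR-15c-3p. The list's main member (xtr-miR-16c) had 18492 against 23552 counts (log2 ratio -0.39, interval -0.42 to -0.36). The miR-181 list had a median of -0.37 with 0 of 6 called, while its main member miR-181b-5p (gga-miR-181b-5p) had 11255 against 12397 counts and a log2 ratio of -0.18, or 0.03 with TMM. In the list of miR-130, miR-454 and miR-301 the median was -0.23, or -0.02 with TMM, with 1 of 8 lower, the 5p strand miR-301a-5p.

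Seeds sum the counts of the miRNAs that can bind the same sites. The 183 named miRNAs fell into 125 seed families, of which 28 had at least 2 members, and the 10 most counted held 87.0% of the counts at 32 °C and 85.7% at 26 °C. The miR-10 seed took 41.8% of the members' counts at 32 °C and 38.4% at 26 °C (log2 ratio 0.10, interval 0.09 to 0.10). Within it, miR-10a-5p had a log2 ratio of -0.02 (0.20 with TMM), miR-10b-5p one of 0.15 and miR-10c-5p one of 0.23. The miR-148 and miR-152 seed took 20.5% at 32 °C and 22.7% at 26 °C, and its log2 ratio was -0.18, which became 0.04 with TMM. The widest differences in CPM, 32 °C minus 26 °C, were in these families. They were 5083 CPM for miR-10b-5p (mmu-miR-10b-5p), 4158 CPM for miR-10c-5p (aca-miR-10c-5p) and -7774 CPM for miR-148a-3p (ggo-miR-148a), whose log2 ratio of -0.18 became 0.03 with TMM. In all, 5.31% of the counts would have to move between miRNAs to turn the composition of 1 library into that of the other.

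The let-7 seed, with 9 members, stood at 9694 CPM at 32 °C against 8594 CPM at 26 °C (log2 ratio 0.17, interval 0.16 to 0.19), and 7 of the 9 members had an interval above equality and 0 below. The leading member let-7i (gga-let-7i) had 33815 counts at 32 °C against 26927 at 26 °C. The miR-221 and miR-222 seed had a log2 ratio of 0.34 (0.31 to 0.37), and the miR-125 seed one of 0.29 (0.26 to 0.32). In the other direction, the miR-192 and miR-215 seed had 2677 CPM at 32 °C and 4157 CPM at 26 °C (log2 ratio -0.63, interval -0.66 to -0.61). Members with intervals on both sides of equality were found in 3 of the 28 families. This needs at least 2 members whose interval excludes equality, which not all of the 28 had. The 3 are thus no measure of agreement within families. Over all 125 families, differences of at least 1.5-fold with an interval that excluded equality were counted. By this rule, on column totals, 2 were higher, those of miR-205 and miR-137, and 31 lower. These numbers depend on the scaling. With TMM the seeds of miR-7 (0.72), miR-196 (0.69) and miR-130b-5p (0.64), among others, also reach 1.5-fold higher. Those of miR-192 (-0.42) and miR-363-5p (-0.41), among others, are then less than 1.5-fold lower. Of the 31 lower on column totals, 11 had at least 1000 counts over both libraries, and 15 consisted of minor strands of hairpins alone.

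**Figure D2:**
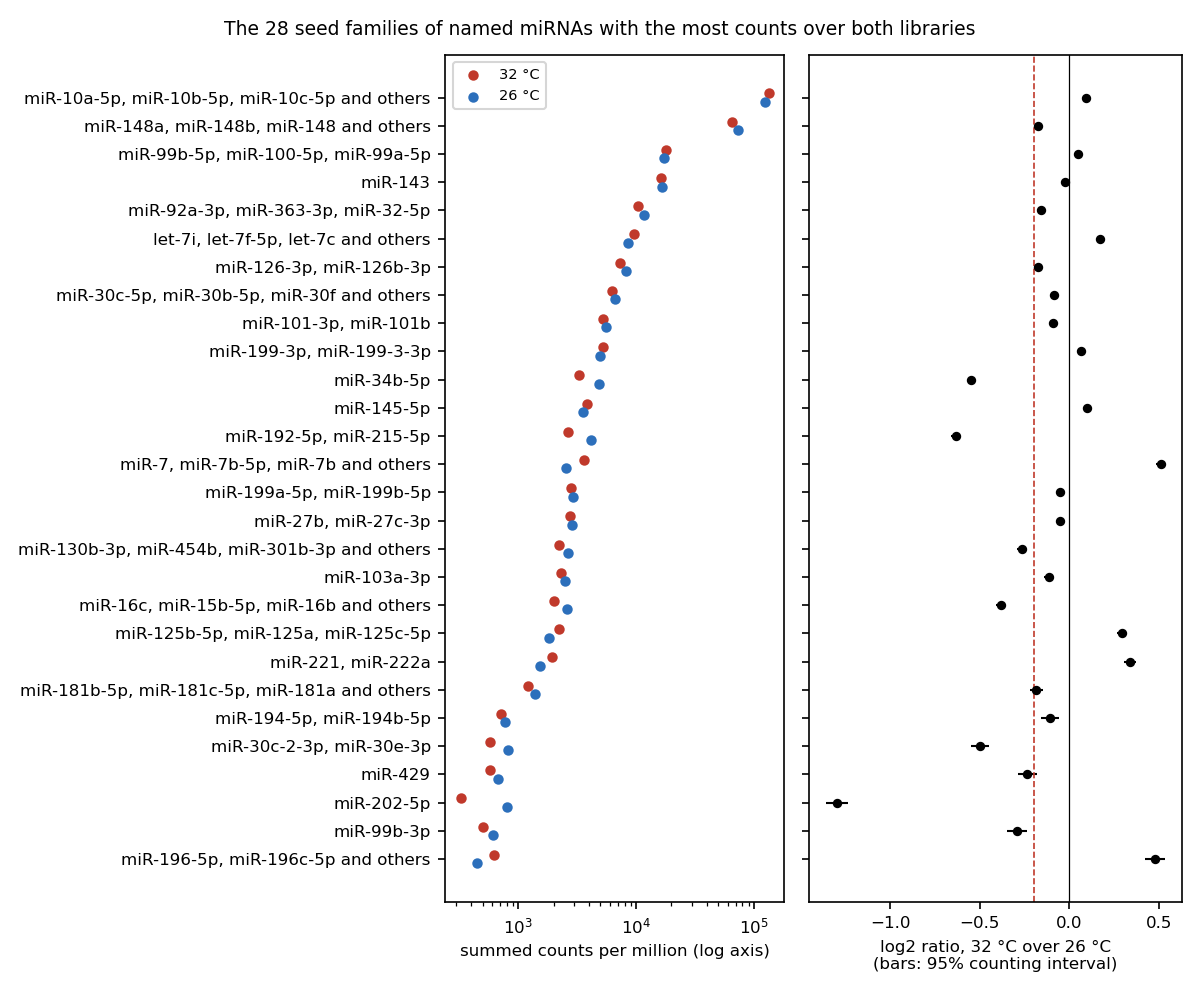
Summed CPM (left, log axis; red 32 °C, blue 26 °C) and log2 ratio with its 95% counting interval (right) of the 28 seed families of named miRNAs with the most counts over both libraries. The families of miR-7 (0.51), miR-196 (0.48) and miR-221 (0.34) lie farthest to the right and those of miR-202-5p (-1.30), miR-192 (-0.63) and miR-34b (-0.55) farthest to the left, and the red dashes mark the median of all members.

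The clusters are those known from other vertebrates, since no positions of turtle miRNAs were used here. In some clusters the members had like ratios, although their narrow counting intervals did not always overlap. miR-143 and miR-145, which are transcribed together in smooth muscle and fibroblasts, had log2 ratios of -0.02 (0.19 with TMM) and 0.10 for their main strands. miR-199-3p and miR-214-3p, which also share a transcript, had log2 ratios of 0.07 and 0.03. The main strands of miR-221 and miR-222, from 1 transcript, had log2 ratios of 0.29 (0.25 to 0.34) and 0.39 (0.35 to 0.44).

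In other clusters the members stood farther apart. miR-192-5p (ola-miR-192-5p), a miRNA of kidney and gut epithelium, had 25229 counts at 32 °C against 38237 at 26 °C (log2 ratio -0.64, interval -0.66 to -0.62). Its partner miR-194-5p (mmu-miR-194-5p) had 6899 against 7229 counts (log2 ratio -0.11, interval -0.16 to -0.06), or 0.11 with TMM. Both miR-192 and miR-215 lie beside a copy of miR-194, and miR-215-5p stood between them at -0.35 (-0.52 to -0.18). In the cluster of miR-99a, let-7c and miR-125b, the log2 ratios of the main strands were -0.16 (0.05 with TMM), 0.13 and 0.25. In the cluster of miR-17 to miR-92a, which promotes proliferation, miR-92a-3p (hsa-miR-92a-3p) had 66221 against 75166 counts (log2 ratio -0.22, interval -0.24 to -0.21). miR-19b-3p stood at 0.06 (-0.03 to 0.16), so that the intervals did not overlap. The member miR-92a-3p also stands for rows named miR-92b and miR-92c, and miR-19b-3p for rows named miR-19c, so other hairpins can add to these counts. In the cluster of miR-130b and miR-301b, miR-130b-3p stood at -0.32 (-0.10 with TMM) and miR-130b-5p at 0.42. The shared 5p strand of miR-301a and miR-301b (gga-miR-301a-5p), with 771 against 1615 counts, was called lower, at -1.11 (-1.23 to -0.98), but not with TMM, at -0.89.

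Within hairpins, the less counted strand was more often the lower one at 32 °C. The ratio of the 2 strands of a hairpin does not depend on the scaling between libraries. Strands were paired by name, so reads from several hairpins of a family can be mixed, and 49 hairpins with at least 100 counts were compared. The minor strand was lower relative to the major strand in 34 and higher in 15. The interval of this difference lay below 0 in 21, above 0 in 4 and included it in 24. The median log2 ratio, 32 °C over 26 °C, was -0.35 for minor strands and -0.00 for major strands. Minor strands are the rarer ones, and medians also differed by abundance among all named miRNAs, these strands included. They were -0.24 under 3 CPM, -0.31 from 3 to 10 CPM and -0.09 from 10 to 100 CPM. From 100 to 1000 CPM the median was -0.15, and above 1000 CPM it was -0.02. The part of abundance in the strand medians was not tested. Of the 49 minor strands 9 were called lower, and of the 49 major strands 4, against 16 (8.74%) of all 183 named miRNAs. Summed over the hairpins, minor strands took 2.40% of the counts at 32 °C and 2.63% at 26 °C.

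The hairpins with a more counted minor strand were also described apart. In the 26 hairpins with at least 200 counts of the minor strand, it was relatively lower in 18, with an interval below 0 in 14 and above 0 in 4. The median log2 difference of minor from major strand was -0.16 in these 26, against -0.22 in all 49. miR-145-3p (hsa-miR-145-3p) had 1117 counts at 32 °C against 1936 at 26 °C, while the major strand miR-145-5p had 36659 against 33279. The log2 ratio of minor to major strand between the temperatures was -0.93 (-1.04 to -0.82). For miR-148a it was -1.01 (-1.21 to -0.81), with 289 against 643 counts of miR-148a-5p. For miR-125b it was -0.71 (-0.79 to -0.62), with 2490 against 3326 counts of the 3p strand, and for miR-30c -0.50 (-0.55 to -0.45), with 5521 against 7608. miR-15c-3p (oan-miR-15c-3p), with 62 against 218 counts, was set against the shared 5p strand of miR-15b and miR-15c, with 432 against 514, and differed by -1.56 (-2.03 to -1.10). Outside the 26, since it was below the limit of 200 counts, the minor strand of let-7c (hsa-let-7c-3p) had 27 against 77 counts. It differed by -1.69 (-2.38 to -1.04).

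The 4 hairpins with the opposite difference were miR-130b, miR-301a, miR-92a and miR-143. For miR-130b the 5p strand took 27.2% of the hairpin's counts at 32 °C and 18.3% at 26 °C, a log2 difference of 0.74 (0.67 to 0.81). For miR-301a the 3p strand took 23.2% at 32 °C and 13% at 26 °C, a log2 difference of 1.01 (0.72 to 1.31). Those of miR-92a and miR-143 were 0.22 (0.06 to 0.38) and 0.09 (0.02 to 0.16).

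**Figure D3:**
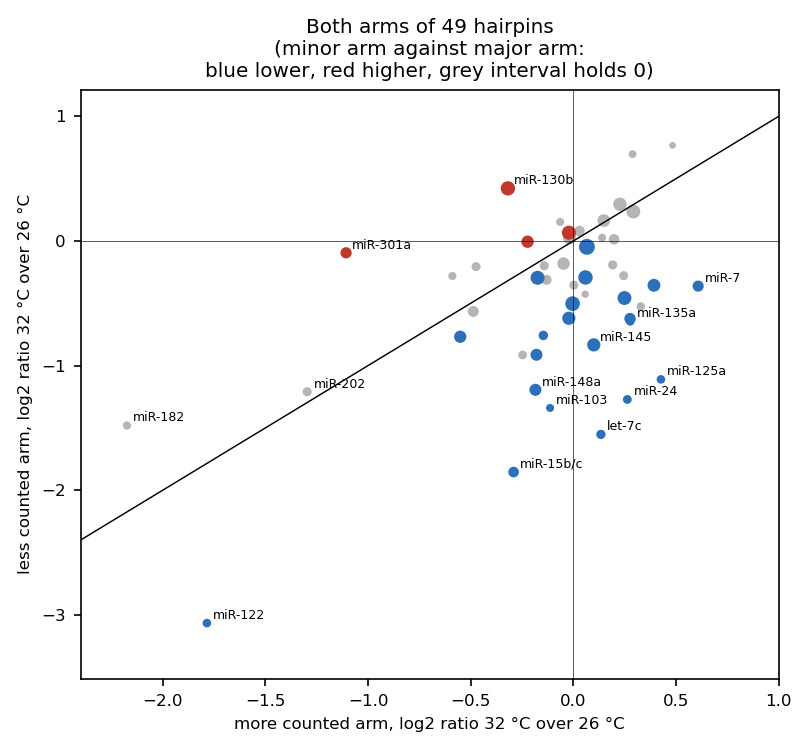
Log2 ratio, 32 °C over 26 °C, of the less counted strand (y axis) against that of the more counted strand (x axis) of 49 hairpins, with dots that grow with the counts of the less counted strand and labels on some of them. Below the diagonal the minor strand is lower relative to the major strand (34 hairpins), with an interval excluding 0 in the 21 blue ones, and the 4 red ones lie above it.

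Predicted entries made up 76 of the 94 calls but few of the counts. Together they held 0.512% of the counts at 32 °C and 0.760% at 26 °C. Their median log2 ratio was -0.33, or -0.12 with TMM, and 36.7% of them were called, against 9.84% of the named miRNAs. These shares are not like for like. The minimum of 10 counts in either library can let in a rare entry only through the library where it is high. Under 3 CPM were 121 of the 207 predicted entries, but 31 of the 183 named miRNAs. The 55 lower entries summed to 1049 counts at 32 °C against 5308 at 26 °C, with 2608 at 29 °C. The 21 higher entries summed to 1007 counts at 32 °C against 241 at 26 °C, with 741 at 29 °C. The count at 29 °C lay between the others in 49 of the 55 lower and 17 of the 21 higher entries. Since the entries were picked for differing between the outer temperatures, this order is a description only.

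Among the higher entries, novel_67 had 168 counts at 32 °C against 7 at 26 °C, with 285 at 29 °C (log2 ratio 4.54, interval 3.47 to 5.88). The near-identical novel_60 and novel_123 were both higher, with 134 against 26 counts and 33 against 4, and whether reads were shared between them was not tested. The entries novel_737 and novel_633 were listed at 0 at 26 °C and had 42 and 19 counts at 32 °C. With the 0 set to 3 counts, these were 13.6-fold and 6.16-fold higher, values that are not lower bounds. novel_98 had 53 counts at 32 °C against 12 at 26 °C.

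Among the lower entries, novel_642 was the most counted, with 121 counts at 32 °C against 1805 at 26 °C, with 512 at 29 °C (log2 ratio -3.94, interval -4.22 to -3.67). novel_734 had 46 against 389 counts and novel_59 had 35 against 266. novel_154 had 2 counts at 32 °C against 42 (log2 ratio -4.43, interval -7.52 to -2.49). The entries novel_141 and novel_780 had 0 counts at 32 °C against 41 and 27 at 26 °C. With the 0 set to 3 counts they were 14.1-fold and 9.26-fold lower, which again are not lower bounds. For novel_141 this is a log2 ratio of -3.81, while its interval ended nearer equality, at -3.45.

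**Figure D4:**
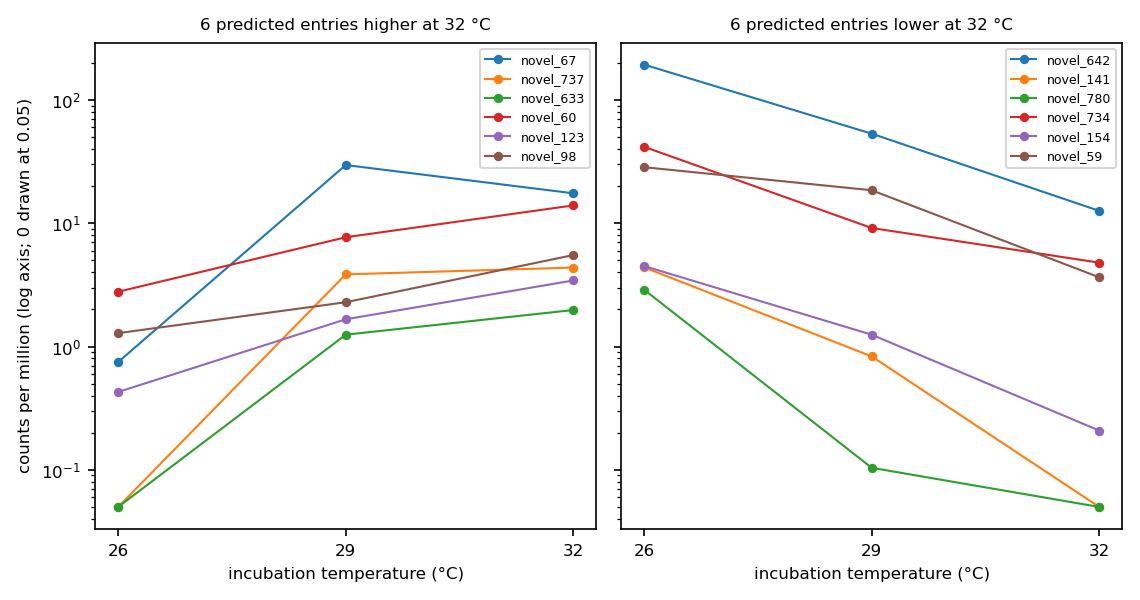
CPM at 26, 29 and 32 °C (log axis, 0 drawn at 0.05 CPM) of the 6 predicted entries farthest above equality (left) and the 6 farthest below it (right) between 32 and 26 °C. In the right panel novel_642 has 121 counts at 32 °C against 1805 at 26 °C, while in the left panel novel_67 is highest at 29 °C.

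Some predicted entries were variants of 1 sequence. Grouped by 10 shared bases on either strand, a grouping chosen after the data were seen, the largest family had 22 entries, among them novel_795 and novel_587. The family summed to 2564 counts at 32 °C against 4381 at 26 °C, with 3976 at 29 °C (log2 ratio -0.81, interval -0.88 to -0.74). Of its 22 entries 0 were higher and 5 lower (22.7%), against 27% lower among the 185 other predicted entries. Its main entry, novel_795, had 1602 counts at 32 °C against 3065 at 26 °C, just outside the 2-fold limit at -0.98 (-1.06 to -0.89), and novel_587 had 15 against 41 counts. The abundant novel_16, of another family of 4 entries, had 3823 counts at 32 °C against 5993 at 26 °C, and 10646 at 29 °C. Only 6 predicted entries had the seed of a named miRNA, and 0 that of a named miRNA called higher or lower.

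The first base was U in 61.9% of the higher entries, 50.9% of the lower entries and 54.2% of the others, and the median GC content was 45.5%, 47.8% and 50%. The median abundance was 1.47 CPM for higher entries, 1.86 CPM for lower entries and 2.53 CPM for the others. By abundance, 14 higher and 35 lower calls fell among the 121 predicted entries under 3 CPM, where a 2-fold difference rests on few counts, and 0 higher and 7 lower calls among the 28 between 10 and 100 CPM.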

How the data were processed

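One small RNA library per temperature, from the pooled RNA of 3 biological samples, was described in the labels' protocols, and libraries were matched to columns by name. The authors deposited a raw read count for each row and library, per the file headers. Beside it stood a TPM value, also deposited, which was the count scaled to an equal column total in every row, so the counts alone were used here, scaled in the same way to CPM. FastQC and Bowtie are named in the submitters' processing notes. Not given in the sources used here were their versions, the mismatches allowed, the reference set and what was done with reads that match more than 1 row. Columns of other samples numbered 0.

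Rows that shared 12 bases were joined where they had the same miRNA name, or, on either strand, where they overlapped by at least 16 bases with no mismatch or had identical counts. The printed sequence is that of the most counted row with the seed most rows of the group have, which for miR-192-5p is dre-miR-192. The most counted row on the strand of most rows stood for each miRNA, so the 390 members stood for 932 rows, 155 of them for more than 1 row, and 39 members included rows of the opposite strand. For 1 member, miR-126-3p, that row was not the most counted of its group. Of the 814 rows over the minimum, 15, from 10 members, had another call than their member. Joining opposite strands was chosen after the data were seen.

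The minimum was 10 counts in either library. Ratios have 95% exact conditional intervals, and a count of 0 was set to 3 counts for the ratio but not for its interval. With 1 library per temperature there was no test and no p-value. On simulated counts of 379 miRNAs, 99 of 100 at 4-fold, 93 of 100 at 2.5-fold and 7 of 179 unchanged ones were called. Since 1 library per temperature leaves the spread between animals unknown, these shares are not error rates of the calls above. Eligible to be named in the text were the 12 named miRNAs and 6 predicted entries farthest beyond equality in each direction, the 12 most abundant, the most abundant and called members of each list, and the leading seed families, clusters and strand pairs. Of these the text gives a selection. The entries novel_16, novel_587 and novel_795 were chosen after their values were seen. Members and lists were chosen with earlier results of these data known. Alternatives were TMM (edgeR 4.0.16) and DESeq2 1.42.0 size factors, other totals, count minimums, fold and interval limits and ways of counting rows. The TMM and DESeq2 factors were computed on all rows, before joining, so a miRNA listed under several names entered them several times. Python 3.11.15, numpy 2.4.6, scipy 1.17.1, pandas 2.3.3, matplotlib 3.10.9 and R 4.3.3 were used.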

Additional observations from a re-analysis of the deposited data

How the results depend on the processing

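The 23 higher and 71 lower calls depended most on how rows were counted and on the limits. They were 9 and 29 with a count minimum of 50, 6 and 31 where the whole interval had to lie beyond 2-fold, 36 and 108 with every row counted, and 2 and 16 among named miRNAs alone. With the interval ignored they were 37 and 83. Under TMM they were 31 and 55. All 55 were among the 71 lower calls, as all 23 higher calls were among the 31. This could not be otherwise, since TMM raised every log2 ratio by 0.21. DESeq2 size factors gave 25 and 63, the other totals 21 to 23 and 71 to 72, a minimum of 1 count 24 and 84, a 1.5-fold limit 29 and 100, joining on 16 bases 24 and 70, and summed rows 25 and 85. Keeping opposite strands apart, chosen after seeing the data, gave 24 and 74. TMM changed the sign of 30 of the 133 members eligible to be named in the text and of 8 of 28 list medians. A shift of 0.21 cannot change the sign of a value beyond the 2-fold limit. Strand ratios within a hairpin do not depend on scaling. No paired analysis was possible because a temperature was represented by 1 library only. Depth limits rare members, since 79 of the 94 calls had a mean under 10 CPM.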
